A study of Mus musculus with 16 samples.

Results

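Whole livers that lacked IKKβ together with TRAF2 and caspase-8 in parenchymal cells were compared with livers that lacked TRAF2 and caspase-8 alone. The members are the 4 arrays titled TRAF2/Casp-8/IKKβLPC -/- null and the 4 arrays titled TRAF2/Casp-8LPC-KO null, which is 8 of the 16 arrays in the series. All came from 7-day-old male mice on a mixed C57/BL6 - SV129Ola background, and each array was labelled with a different mouse. Both genotypes carry LoxP-flanked alleles of Traf2 and Caspase-8 that are deleted by the alfp-Cre transgene, in which albumin and alpha-fetoprotein control regions drive Cre in liver parenchymal cells. The triple knockout adds a conditional deletion of Ikkβ with the same Cre, so the comparison asks what else changes when the kinase is lost. The remaining genotypes, of 4 arrays each, entered the statistical model and are quoted for reference. They are wild-type (WT) littermates with the floxed alleles and no Cre, and TRAF2/Casp-8LPC-KO/RIPK3-/- mice, in which Ripk3 is deleted in every cell. RNA was taken from whole liver, so cells in which the Cre is not active add to every value, and fewer cells of a type cannot be told apart from less RNA per cell.

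IKKβ is a serine kinase of the IκB kinase complex. It phosphorylates the IκB inhibitors, which are then degraded and release NF-κB dimers such as RelA with p50; this is the canonical pathway. TRAF2 joins TNF receptors to the complex, and together with cIAP1 and cIAP2 it also keeps the kinase NIK low, which restrains the non-canonical pathway that runs through IKKα and processing of p100, the product of Nfkb2. Caspase-8 starts apoptosis downstream of the same receptors, and RIPK3 carries out necroptosis. In liver, NF-κB controls survival, chemokine and acute phase genes of hepatocytes.

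The deposited values are log2 signals after RMA, an array normalisation, and they correlated at 0.985 to 0.991 within each of the 2 genotypes. A gene is represented by 1 probe set, and a difference in signal is on the log2 scale with its standard error (SE). A gene is said to have risen or fallen where its p-value, adjusted over all 35556 probe sets in limma, was under 0.05. Of all 18820 genes, 2019 were at an unadjusted limma p under 0.05, and the counts of that kind below are to be read beside this. The 20 hepatocyte markers averaged 11.89 to 12.02 in triple knockout and 11.84 to 12.06 in TRAF2/Casp8 knockout livers, and 1 of them, Apoc3, differed. Alb ranged from 13.35 to 13.44 in triple knockout livers and from 13.30 to 13.48 in TRAF2/Casp8 knockout livers. In the array names, read as plate positions, the triple knockout and WT arrays stand in column 5 and the TRAF2/Casp8 and RIPK3 knockout arrays in column 7, so column and genotype cannot be told apart in this comparison. The name of TRAF2/Casp8 knockout replicate 4 carries the prefix G183 and all other arrays carry G182. What the prefix stands for is not known here. Nor can loss of IKKβ be told apart from another difference between the crossed lines.

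The targeted transcript was lower in every triple knockout liver. Ikbkb, which encodes IKKβ, had signals of 7.30, 7.26, 7.12 and 7.07 in triple knockout livers and of 7.87, 7.75, 8.00 and 7.89 in TRAF2/Casp8 knockout livers. The groups did not overlap, and Ikbkb fell by 0.69 ± 0.09 (SE, n = 4 arrays a group), or 1.62-fold, with an adjusted p of 0.00137. WT livers lay between them at 7.50 to 7.73, and the triple knockout was 0.45 below WT with an adjusted p of 0.175. The sources used here do not say where the probe set lies relative to the deleted part of the gene. Casp8, deleted in both genotypes, differed by -0.07 ± 0.11 (adjusted p 0.921). Ripk3, intact in both, differed by 0.19 ± 0.18 (adjusted p 0.845).

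Traf2 went against its label in all arrays labelled as knockouts. Its signals were 6.87, 6.92, 6.87 and 6.88 in the arrays labelled triple knockout, 7.44, 7.38, 7.31 and 7.07 in those labelled TRAF2/Casp8 knockout, and 6.21 to 6.40 in WT. The 2 knockout groups did not overlap, but the difference of -0.41 ± 0.09 missed the threshold (adjusted p 0.0559). The direction of every result below rests on the genotype labels. Between these 2 groups the Ikbkb signal follows the labels, the Casp8 signal does not separate them, and the Traf2 signal of both goes against their label relative to WT; where its probe set lies is not known here.

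Far more genes were lower than higher in the triple knockout. Of 18820 genes, 192 (1.02%) differed, 170 (0.903%) lower and 22 (0.117%) higher in the triple knockout. At least a 2-fold change was seen for 56 of the genes that fell and 8 of those that rose. Falls ranged from -0.33 to -3.83 with a median of -0.81, and rises from 0.50 to 3.18 with a median of 0.87, while the median over all genes was -0.000269. None of the 192 genes had overlapping groups, against 7.48% of all genes with groups apart (4.69% lower and 2.78% higher). The calls were made on these same arrays, so groups apart among called genes are no further support. Over all probe sets, 223 (0.627%) passed, 26 (0.0731%) higher and 197 (0.554%) lower.

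**Figure D1:**
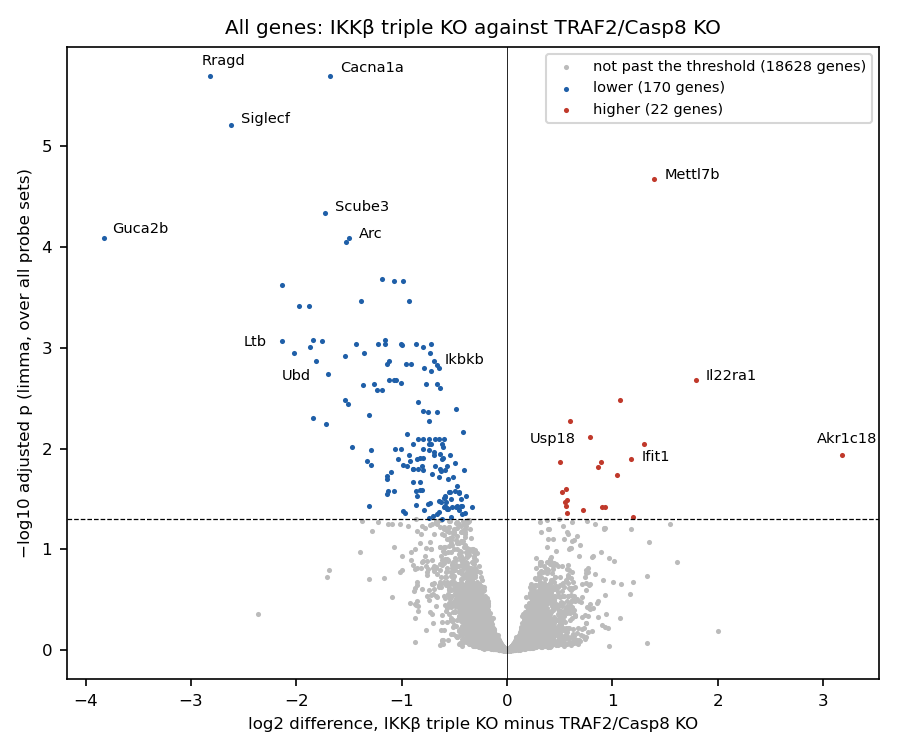
Each point is a gene, with the log2 difference between the triple knockout and the TRAF2/Casp8 knockout on the x axis and −log10 of the limma adjusted p on the y axis; the dashed line marks 0.05. The 170 genes that fell (blue) outnumber the 22 that rose (red), and Guca2b at -3.83 and Akr1c18 at 3.18 are the farthest out.

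The number of calls depended on single arrays. It was 115, 121, 125 and 142 probe sets without TRAF2/Casp8 knockout replicate 1, TRAF2/Casp8 knockout replicate 4, triple knockout replicate 3 and triple knockout replicate 4, and the higher ones numbered 15 without TRAF2/Casp8 knockout replicate 3 and 45 without WT replicate 1. With each of the 8 arrays left out in turn, 85 of the 170 lower and 6 of the 22 higher genes kept their call each time.

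NF-κB genes were prominent among the falls. Of 38 measured canonical NF-κB targets, 7 fell (Ccl20, Nfkbie, Ltb, Ubd, Ccl2, Nfkb2 and Birc3) and none rose in limma, which is 18.4% lower against 0.903% of all genes. An unadjusted p under 0.05 was reached by 14 of them, and by 2019 of all 18820 genes. Of 17 non-canonical genes, 5 fell (Ltb, Birc2, Madcam1, Nfkb2 and Birc3), which is 29.4% against 0.903% of all genes, and none rose, with 8 at an unadjusted p under 0.05. Ltb, Nfkb2 and Birc3 are in both lists. These lists and those below were chosen with earlier results of these data known, so their shares describe the lists and are not a test. The list medians were -0.14 and -0.26. The canonical median ranged from -0.21 to -0.06 without TRAF2/Casp8 knockout replicate 3 and replicate 4 in turn, and the non-canonical median from -0.39 without TRAF2/Casp8 knockout replicate 2 to -0.20 without triple knockout replicate 4. The mean signal of the canonical list was 6.41 to 6.58 in triple knockout, 6.70 to 7.07 in TRAF2/Casp8 knockout and 5.84 to 6.43 in WT livers.

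The promoters of these genes are shown because NF-κB binds κB motifs in the promoters of its targets. The RefSeq table (GRCm38.p6) gives windows from 250 bases before to 50 after a start site, and both strands were searched for the κB consensus. Below are the 120 bases before the start of the 6 NF-κB list members that fell and had a match, of 8 that fell and have a window. Where a gene has several start sites, the one with the most matches in these bases is printed. All are on the + strand of the reference, with consensus matches in capitals. In Nfkb2 the first run in capitals holds 2 overlapping matches.
Nfkb2, chr19:46304617-46304736: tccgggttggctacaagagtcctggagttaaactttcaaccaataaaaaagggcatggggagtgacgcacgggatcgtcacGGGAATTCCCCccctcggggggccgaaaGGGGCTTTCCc
Nfkbie, chr17:45555580-45555699: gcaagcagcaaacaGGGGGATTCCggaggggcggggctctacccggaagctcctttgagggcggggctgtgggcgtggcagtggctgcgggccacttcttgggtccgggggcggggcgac
Ltb, chr17:35194387-35194506: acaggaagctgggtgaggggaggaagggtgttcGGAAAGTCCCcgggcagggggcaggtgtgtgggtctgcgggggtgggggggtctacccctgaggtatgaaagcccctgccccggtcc
Ccl20, chr1:83116646-83116765: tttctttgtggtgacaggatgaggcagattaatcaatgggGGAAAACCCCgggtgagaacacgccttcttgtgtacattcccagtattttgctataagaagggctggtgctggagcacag
Madcam1, chr10:79664439-79664558: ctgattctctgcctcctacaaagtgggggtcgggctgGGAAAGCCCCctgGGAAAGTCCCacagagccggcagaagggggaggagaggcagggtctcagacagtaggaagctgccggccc
Ubd, chr17:37193772-37193891: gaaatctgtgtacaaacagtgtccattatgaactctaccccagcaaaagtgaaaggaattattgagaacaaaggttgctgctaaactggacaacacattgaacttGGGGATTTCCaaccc

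A κB match was found in 20 of the 128 genes that fell and have a window (15.6%), in 1 of 15 genes that rose (6.67%) and in 851 of 14749 genes tested (5.77%). Within the NF-κB lists, the match was present in 6 of the 8 members that fell and have a window, and in 21 of 51 measured members (41.2%), most of which did not pass the test. A match is a description of the letters, and binding was not measured.

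Among the subunits and inhibitors, the transcripts of IκBε and p100 fell besides that of IKKβ. Of 17 measured IKK kinases, NF-κB subunits and inhibitors, 3 fell (Nfkbie, Nfkb2 and the targeted Ikbkb), which is 17.6% against 0.903% of all genes. None rose in limma, 4 were at an unadjusted p under 0.05, and the median was -0.13. Nfkbie and Nfkb2 are also among the canonical targets counted above. Nfkbie, which encodes the inhibitor IκBε and is itself induced by NF-κB, had signals of 6.29, 6.56, 5.75 and 5.90 in triple knockout livers against 8.09, 7.94, 7.67 and 8.17 in TRAF2/Casp8 knockout livers. It fell 3.59-fold (-1.84 ± 0.22, adjusted p 0.000841) to a level near the WT range of 5.10 to 6.12. Nfkb2, which encodes p100 and its product p52, gave 7.38, 7.43, 6.90 and 7.03 against 8.31, 8.29, 7.91 and 8.34. Its fall of 2.05-fold (-1.03 ± 0.18, adjusted p 0.0126) left the triple knockout above all WT livers, at 5.92 to 6.75.

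The other measured subunits and inhibitors did not pass. Nfkb1, the gene of p50, and Chuk, the gene of IKKα, were not among the measured genes, so nothing is known of them here. Relb, the partner of p52, differed by -0.85 ± 0.30 (adjusted p 0.324). Rela, the main transactivating subunit, differed by -0.22 ± 0.12 (adjusted p 0.636). Nfkbia, which encodes IκBα, ranged from 8.73 to 10.01 in triple knockout and from 8.93 to 9.91 in TRAF2/Casp8 knockout livers, a difference of 0.01 ± 0.28 (adjusted p 0.996), although it too is a classical NF-κB target. Tnfaip3, which encodes the deubiquitinase A20, differed by -0.39 ± 0.22 (adjusted p 0.65).

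**Figure D2:**
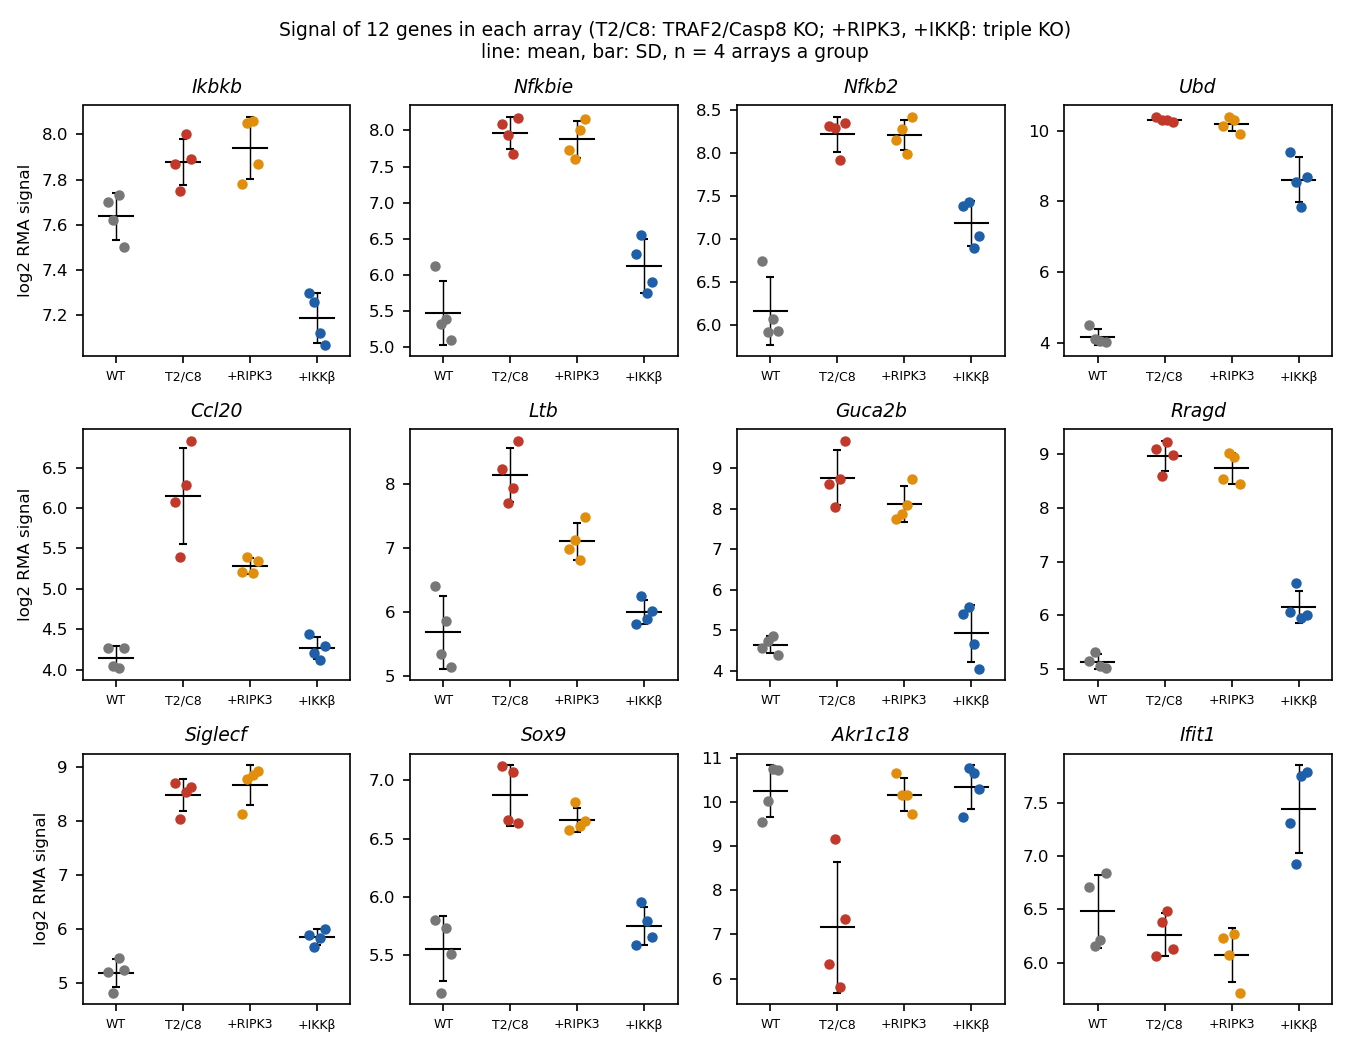
Log2 signal of 12 genes in each of the 16 arrays, by genotype, on a y axis set for each panel; the line is the mean and the bar the SD of 4 arrays. In 10 of the panels the triple knockout points lie below those of the TRAF2/Casp8 knockout, while Akr1c18 and Ifit1 lie above, and Ubd stays well above WT.

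Secreted and surface mediators of inflammation made up most of the remaining NF-κB falls. Ltb encodes lymphotoxin β, which signals to the non-canonical pathway. Its signals were 5.82, 6.25, 5.90 and 6.01 in triple knockout livers against 8.23, 7.70, 7.94 and 8.67. It fell 4.4-fold (-2.14 ± 0.25, adjusted p 0.000869) into the WT range of 5.14 to 6.40. Madcam1, an adhesion molecule for gut-homing lymphocytes, gave 3.25, 3.72, 3.15 and 3.14 against 5.08, 4.56, 4.81 and 6.16, a fall of 3.58-fold (-1.84 ± 0.28, adjusted p 0.00502). Its triple knockout signals lie below the array medians of 4.90 to 5.05; no background level was used here, so folds of such dim genes compare signals and may understate the change in RNA.

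Of 26 chemokines, 4 fell (Ccl20, Ccl9, Cx3cl1 and Ccl2; 15.4% against 0.903% of all genes), none rose in limma, 7 were at an unadjusted p under 0.05, and the median was -0.04. Ccl20 and Ccl2 are also among the canonical targets counted above. Ccl20, which attracts CCR6-bearing lymphocytes and dendritic cells, gave 4.44, 4.21, 4.12 and 4.30 in triple knockout livers against 6.07, 5.40, 6.28 and 6.83. The fall was 3.68-fold (-1.88 ± 0.21, adjusted p 0.000391), down to the WT range of 4.02 to 4.27 or just above it. Ccl2, the main monocyte attractant, gave 4.53, 5.05, 4.87 and 4.50 against 6.40, 5.79, 5.56 and 6.28 and fell 2.40-fold (-1.26 ± 0.18, adjusted p 0.00229). Cx3cl1, a membrane-bound chemokine for monocytes and NK cells, fell 2.07-fold (-1.05 ± 0.14, adjusted p 0.00211), and Ccl9 1.65-fold (-0.72 ± 0.09, adjusted p 0.000913).

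The neutrophil chemokine Cxcl1 and the interferon-induced Cxcl10 did not pass, with SEs wider than those of the chemokines that fell. Cxcl1 differed by 0.51 ± 0.51 (adjusted p 0.863) and Cxcl10 by -0.36 ± 0.34 (adjusted p 0.85). Cxcl10 remained high, at 9.0 to 10.50 in triple knockout livers against 6.69 to 7.58 in WT. The cytokine gene Tnf itself was at 4.90 to 5.61 in triple knockout and 5.14 to 6.14 in TRAF2/Casp8 knockout livers (-0.19 ± 0.24, adjusted p 0.899). Monocyte markers (0 of 9 passed in limma, 1 at an unadjusted p under 0.05, median -0.11) averaged 6.01 to 6.55 in triple knockout livers and 6.19 to 6.80 in TRAF2/Casp8 knockout livers, ranges that overlap.

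Ubd combined a clear fall with a high remaining level. Ubd encodes FAT10, a ubiquitin-like modifier induced by TNF and interferon γ. Its signals were 10.39, 10.29, 10.31 and 10.25 in TRAF2/Casp8 knockout livers, nearly equal, and 9.39, 8.54, 7.84 and 8.69 in triple knockout livers. It fell 3.25-fold (-1.70 ± 0.23, adjusted p 0.00181). WT livers had only 4.02 to 4.49, so the triple knockout was still 21.8-fold above WT (4.45, adjusted p 2.17e-07).

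Of 25 TNF receptor, apoptosis and necroptosis genes, 2 fell (8% against 0.903% of all genes), none rose in limma, 6 were at an unadjusted p under 0.05, and the median was -0.03. Both that fell encode inhibitors of apoptosis that bind TRAF2, and both are also among the non-canonical genes counted above. Birc2 (cIAP1) gave 7.16, 7.00, 6.71 and 6.78 in triple knockout against 7.84, 7.66, 7.92 and 7.88 in TRAF2/Casp8 knockout livers, a fall of 1.88-fold (-0.91 ± 0.12, adjusted p 0.00145). Birc3 (cIAP2) gave 6.97, 7.32, 6.67 and 6.62 against 8.23, 7.90, 7.68 and 8.35 and fell 2.21-fold (-1.14 ± 0.21, adjusted p 0.0186). Cflar, which encodes the caspase-8 inhibitor cFLIP, had groups apart at -0.32 but did not pass (adjusted p 0.308).

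The calls of Nfkb2 and Birc3 were each lost without TRAF2/Casp8 knockout replicate 1, TRAF2/Casp8 knockout replicate 4, triple knockout replicate 3 or triple knockout replicate 4, which left 3 or 4 non-canonical and 5 canonical genes lower. In a fit of the 8 arrays alone, Ubd, Ccl2, Madcam1 and Birc3 did not pass.

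**Figure D3:**
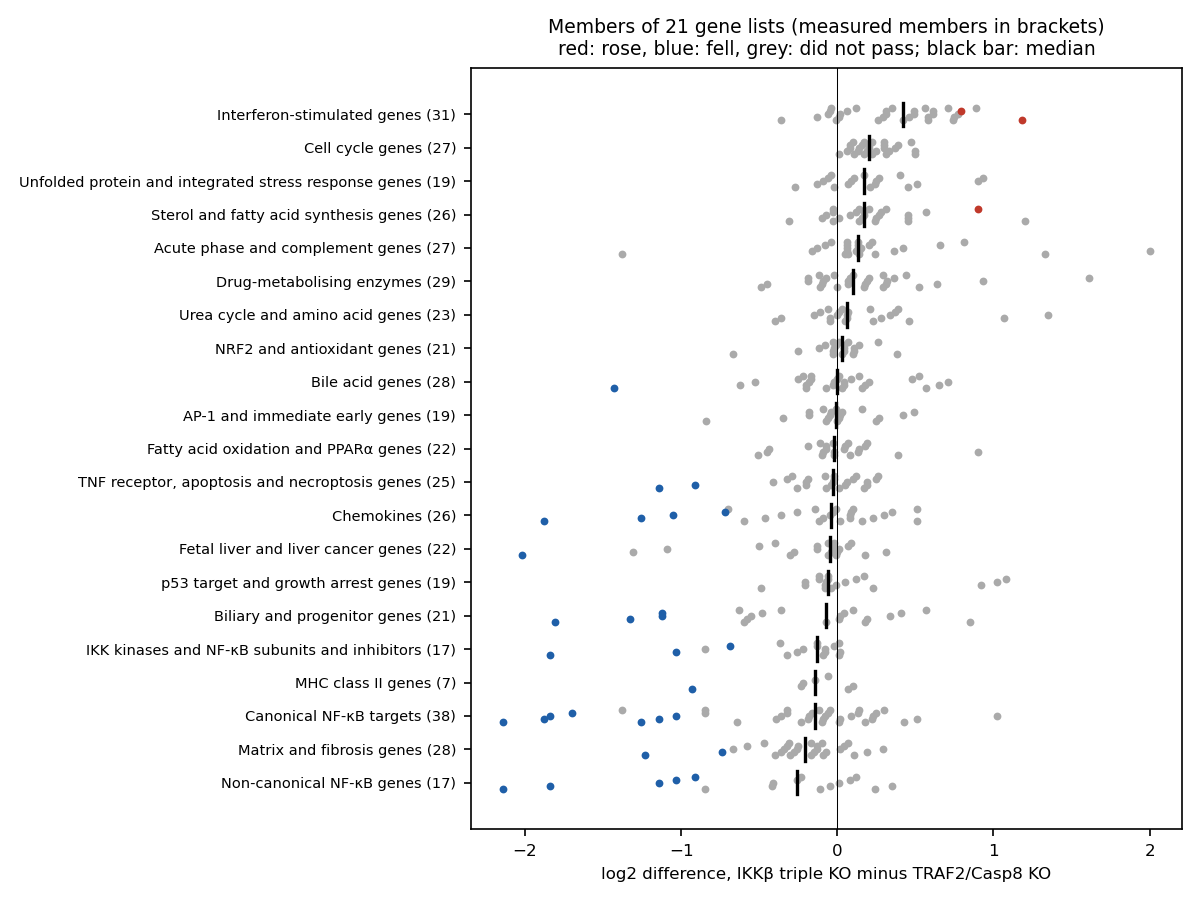
Each dot is a measured member of 1 of 21 gene lists, placed by its log2 difference between triple knockout and TRAF2/Casp8 knockout; red rose, blue fell, grey did not pass, and the black bar is the list median. Falls cluster in the NF-κB, chemokine and biliary rows, and the interferon row has the highest median at 0.42. A gene of several lists is drawn in each of its rows, so the NF-κB and chemokine falls are partly the same genes.

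The largest falls were in genes outside the NF-κB lists. Guca2b encodes uroguanylin, a peptide hormone of the intestinal epithelium that activates guanylate cyclase C. Its signals were 8.61, 8.04, 8.72 and 9.67 in TRAF2/Casp8 knockout livers and 5.41, 5.58, 4.66 and 4.06 in triple knockout livers. It fell 14.2-fold (-3.83 ± 0.35, adjusted p 8.12e-05), close to the WT range of 4.39 to 4.87.

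Rragd encodes RagD, a small GTPase that links amino acids to mTORC1 on lysosomes. It gave 6.07, 6.60, 5.95 and 6.0 in triple knockout against 9.10, 8.59, 9.23 and 8.98 in TRAF2/Casp8 knockout livers. Its fall was 7.05-fold (-2.82 ± 0.17, adjusted p 2.02e-06), and the lowest triple knockout liver was still above the highest WT liver, at 5.32. The same smallest adjusted p was reached by Cacna1a, a calcium channel subunit chosen here after its values were seen, which fell 3.20-fold (-1.68 ± 0.11) from 5.97 to 6.05 in TRAF2/Casp8 knockout livers to 4.23 to 4.38.

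Siglecf, a sialic acid receptor best known from eosinophils, gave 5.90, 5.67, 5.84 and 6.01 in triple knockout livers against 8.69, 8.04, 8.53 and 8.63. It fell 6.16-fold (-2.62 ± 0.19, adjusted p 6.19e-06). The other 11 eosinophil, basophil and mast cell markers did not fall with it: none passed, and the granule genes Epx and Prg2 differed by 0.81 ± 0.21 (adjusted p 0.119) and 0.79 ± 0.31 (adjusted p 0.393). Over all 12 markers, 1 fell (8.33% against 0.903% of all genes), none rose in limma, and the median was 0.15. An unadjusted p under 0.05 was reached by 5 of them, and by 2019 of all 18820 genes. A difference above 0 was seen for 9, as for 49.9% of all genes, and 2 had groups apart and higher, against 2.78%. Averaged over the 12 markers, the signal was 3.86 to 4.21 in triple knockout and 3.90 to 4.23 in TRAF2/Casp8 knockout livers.

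The next largest falls span secreted factors and epithelial genes. Serpina12, which encodes the adipokine vaspin, gave 4.24, 4.12, 4.13 and 5.04 against 6.43, 6.94, 6.55 and 6.17 and fell 4.42-fold (-2.14 ± 0.22, adjusted p 0.00024). Tff3, a trefoil peptide of mucous epithelia, gave 7.30, 6.84, 7.22 and 7.78 against 8.86, 9.45, 9.40 and 9.50 and fell 4.05-fold (-2.02 ± 0.25, adjusted p 0.00112). Wif1, a secreted Wnt inhibitor, gave 8.76, 8.53, 8.35 and 8.07 against 10.37, 10.35, 10.35 and 9.67 and fell 3.38-fold (-1.76 ± 0.21, adjusted p 0.000869). Wif1 and Tff3 both stayed above every WT liver, at 6.04 to 6.87 and 5.68 to 6.23.

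Gask1a (-1.97), Elapor1 (-1.87), Scube3 (-1.73) and the desmosomal cadherin Dsg1c (-1.72) completed the 15 largest falls, with adjusted p from 4.65e-05 for Scube3 to 0.00569 for Dsg1c. Gask1a, a Golgi-associated protein, was at 4.05 to 4.66 in triple knockout and 5.58 to 6.73 in TRAF2/Casp8 knockout livers. Elapor1, a protein of endosomes and lysosomes, dropped from 8.06 to 8.91 down to 6.43 to 6.74. Scube3, a secreted signalling glycoprotein, was at 4.24 to 4.65 against 5.72 to 6.50.

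**Figure D4:**
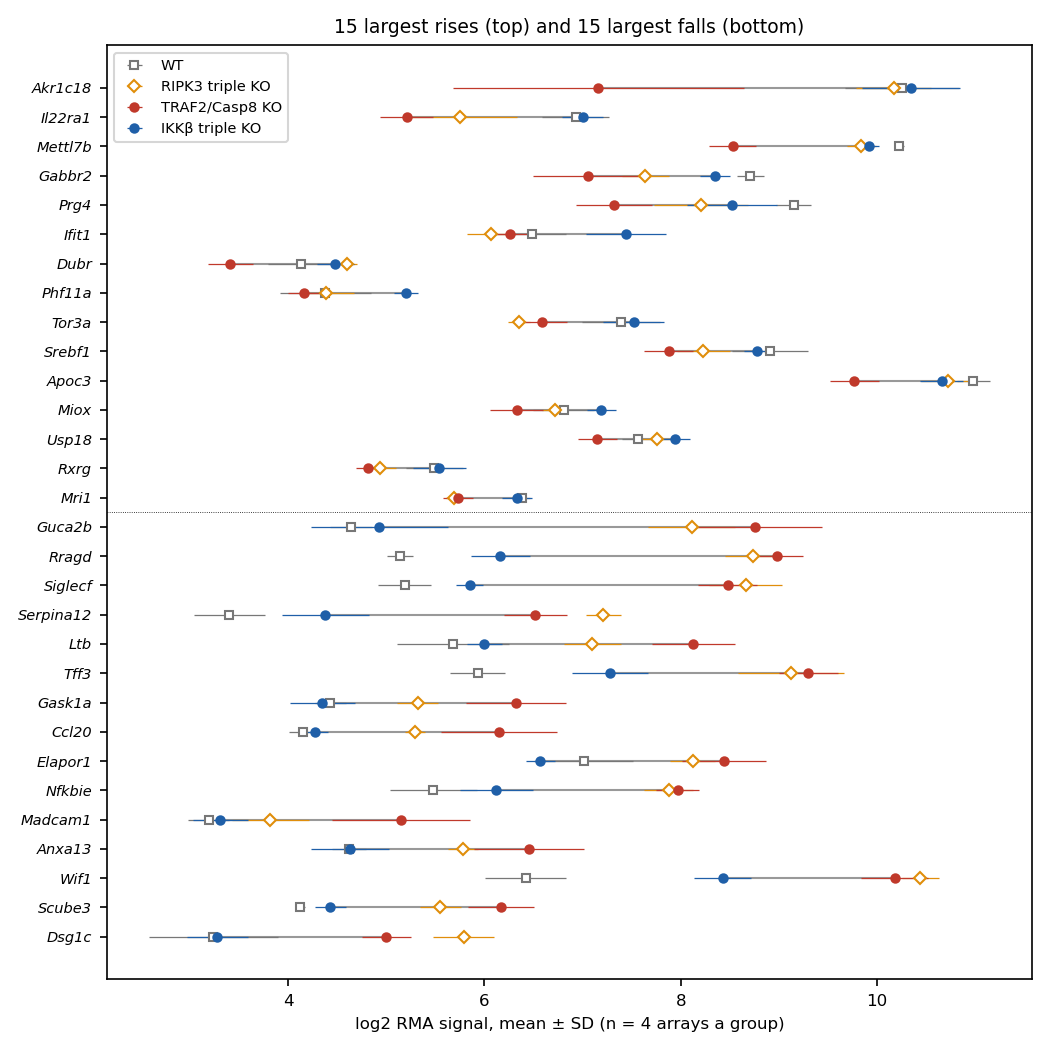
Mean log2 signal with its SD (n = 4 arrays) of the 15 largest rises and 15 largest falls in all 4 genotypes. Most triple knockout means (blue) lie nearer to WT (open squares) than the TRAF2/Casp8 knockout means (red) do, whereas Wif1 and Tff3 stop part of the way. Triple knockout and WT arrays also share a plate column, which cannot be told apart from genotype here.

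Biliary and progenitor genes fell in part. Of 21 measured genes, 4 fell (19% against 0.903% of all genes), none rose in limma, 11 were at an unadjusted p under 0.05, 9 had groups apart and lower (against 4.69% of all genes), and the median was -0.07, which turned to 0.06 without triple knockout replicate 1. Anxa13, an epithelial annexin, gave 4.07, 5.02, 4.74 and 4.68 in triple knockout livers against 7.03, 5.69, 6.57 and 6.49 and fell 3.52-fold (-1.81 ± 0.23, adjusted p 0.00137). Sox9, the transcription factor of bile duct cells, gave 5.59, 5.96, 5.79 and 5.66 against 7.12, 6.66, 7.07 and 6.63 and fell 2.17-fold (-1.12 ± 0.15, adjusted p 0.00137). The tight-junction genes Cldn7 and Cldn4 fell 2.18-fold (-1.12 ± 0.15, adjusted p 0.00211) and 2.51-fold (-1.33 ± 0.23, adjusted p 0.0132), the latter not without TRAF2/Casp8 knockout replicate 1 or 4 or triple knockout replicate 3. Anxa13 and Cldn4 did not pass in a fit of the 8 arrays alone.

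The cytokeratins that mark bile ducts did not pass. Krt19 was at 4.75 to 6.15 in triple knockout and 5.13 to 5.67 in TRAF2/Casp8 knockout livers (0.19 ± 0.37, adjusted p 0.943), and Krt7 differed by -0.07 ± 0.16 (adjusted p 0.951). Over the 8 measured cholangiocyte markers, 2 fell (Sox9 and Cldn7), which is 25% against 0.903% of all genes. An unadjusted p under 0.05 was reached by 5, and the median was -0.47. Their mean signal was 4.91 to 5.44 in triple knockout and 5.54 to 5.84 in TRAF2/Casp8 knockout livers, against 4.87 to 5.25 in WT; its part in the biliary falls was not tested. Epcam and Pkhd1 had groups apart, at -0.58 and -0.60, without passing (adjusted p 0.169 and 0.0606).

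Of 22 fetal liver and liver cancer genes, Tff3 fell (4.55% against 0.903% of all genes) and none rose in limma, with 5 at an unadjusted p under 0.05 and a median of -0.05. Gpc3, a fetal proteoglycan re-expressed in liver cancer, had groups apart at -0.40 ± 0.09 (adjusted p 0.0761). Afp, the fetal serum protein, differed by -0.13 ± 0.14 (adjusted p 0.872).

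Of 28 matrix and fibrosis genes, 2 fell (7.14% against 0.903% of all genes), none rose in limma, and the median was -0.21. An unadjusted p under 0.05 was reached by 9 of them, and by 2019 of all 18820 genes. Pdgfb, a growth factor for stellate cells, gave 5.53, 6.02, 5.62 and 5.59 in triple knockout livers against 7.09, 6.76, 6.65 and 7.19 and fell 2.35-fold (-1.23 ± 0.18, adjusted p 0.00264). Col6a3, a chain of collagen VI, fell 1.67-fold (-0.74 ± 0.12, adjusted p 0.00531). The main fibrillar collagen genes Col1a1 and Col1a2 differed by -0.30 and -0.26, with adjusted p of 0.605 and 0.602. Of 17 stellate cell markers, Ngfr fell (-0.74 ± 0.16, adjusted p 0.0484), which is 5.88% against 0.903% of all genes. An unadjusted p under 0.05 was reached by 5, and the median was -0.18. The markers averaged 8.02 to 8.32 in triple knockout and 8.33 to 8.43 in TRAF2/Casp8 knockout livers, and their part in the matrix result was not tested. Dcn, Col1a1, Col1a2 and Col3a1 are in both the stellate and the matrix list, so these averages partly hold matrix genes. The Ngfr call held only without triple knockout replicate 2 or TRAF2/Casp8 knockout replicate 2 when single arrays of the 2 genotypes were left out, and was lost in a fit of the 8 arrays alone.

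Of 7 MHC class II genes, 1 fell (14.3% against 0.903% of all genes) and none rose in limma, with 1 at an unadjusted p under 0.05 and a median of -0.14. Cd74, the invariant chain that escorts class II molecules, gave 9.08, 9.52, 8.98 and 9.04 in triple knockout against 10.08, 9.99, 9.91 and 10.37 in TRAF2/Casp8 knockout livers. It fell 1.91-fold (-0.93 ± 0.16, adjusted p 0.0116), a call lost without triple knockout replicate 3 or TRAF2/Casp8 knockout replicate 4. The class II chain H2-Ab1 differed by -0.22 ± 0.16 (adjusted p 0.765). Dendritic cell markers (0 of 10 passed in limma, 0 at an unadjusted p under 0.05) averaged 5.07 to 5.23 and 5.12 to 5.22, and B cell markers (0 of 12, 1 at an unadjusted p under 0.05) 4.93 to 5.42 and 4.91 to 5.12.

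The largest rise was in Akr1c18, a hydroxysteroid dehydrogenase that inactivates progesterone. TRAF2/Casp8 knockout livers were low and scattered, at 6.33, 9.17, 5.81 and 7.35, and triple knockout livers high, at 9.67, 10.78, 10.65 and 10.29. It rose 9.09-fold (3.18 ± 0.55, adjusted p 0.0116) into the WT range of 9.54 to 10.74. Without TRAF2/Casp8 knockout replicate 1 its adjusted p was 0.0549.

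Il22ra1 and Mettl7b rose with more even replicates. Il22ra1 encodes the epithelial receptor chain for interleukin-22. It gave 7.04, 7.28, 6.79 and 6.87 in triple knockout livers against 4.82, 5.41, 5.30 and 5.31 and rose 3.45-fold (1.79 ± 0.25, adjusted p 0.00211), while its second, dimmer probe set differed by 0.89 (adjusted p 0.0559). Mettl7b, a thiol methyltransferase, gave 9.96, 10.03, 9.80 and 9.90 against 8.55, 8.46, 8.84 and 8.26. Its rise of 2.63-fold (1.40 ± 0.11) had the smallest adjusted p among the rises, 2.12e-05.

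The other rises were of genes with varied roles. Srebf1, the transcription factor of fatty acid synthesis, gave 8.68, 8.94, 8.85 and 8.66 against 7.62, 8.21, 7.89 and 7.80 and rose 1.87-fold (0.90 ± 0.18, adjusted p 0.038). Apoc3, an apolipoprotein that slows triglyceride clearance, gave 10.46, 10.89, 10.81 and 10.49 against 9.98, 10, 9.54 and 9.59 and rose 1.85-fold (0.89 ± 0.16, adjusted p 0.0136). Miox, which breaks down inositol, the nuclear receptor Rxrg and Mri1 of the methionine salvage pathway rose by 0.86, 0.72 and 0.60. Gabbr2, a GABA-B receptor subunit, rose by 1.30, Prg4, which encodes lubricin, by 1.20 and the noncoding RNA gene Dubr by 1.07.

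Among these rises, single arrays decided several calls. Srebf1 and Rxrg passed only without TRAF2/Casp8 knockout replicate 2 when arrays were left out in turn, and Prg4 only without triple knockout replicate 1. Apoc3 was lost without TRAF2/Casp8 knockout replicate 3 or 4 or triple knockout replicate 3, and Miox without TRAF2/Casp8 knockout replicate 1 or 4 or triple knockout replicate 4. In a fit of the 8 arrays alone, Akr1c18, Gabbr2, Prg4, Ifit1, Tor3a, Apoc3, Miox, Rxrg and Mri1 did not pass.

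Interferon-stimulated genes leaned upward as a group, with few members past the threshold. Of 31 measured genes, 2 rose (6.45% against 0.117% of all genes), none fell in limma, 13 were at an unadjusted p under 0.05, and 25 had a difference above 0, as did 49.9% of all genes. The median was 0.42, from 0.33 without triple knockout replicate 3 to 0.47 without triple knockout replicate 1. The mean signal of the list was 7.39 to 7.79 in triple knockout, 7.09 to 7.24 in TRAF2/Casp8 knockout and 6.89 to 7.39 in WT livers, so the 2 knockout groups did not overlap.

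Ifit1, an antiviral protein that binds foreign RNA, gave 7.31, 6.92, 7.75 and 7.79 in triple knockout livers against 6.06, 6.38, 6.48 and 6.13, with WT at 6.16 to 6.84. It rose 2.27-fold (1.18 ± 0.21, adjusted p 0.0128), and all triple knockout livers were above all WT livers, although that difference of 0.96 had an adjusted p of 0.215. Usp18, the protease that removes ISG15 and damps interferon signalling, gave 7.76, 7.92, 8.11 and 7.96 against 7.41, 7.03, 6.95 and 7.20 and rose 1.73-fold (0.79 ± 0.13, adjusted p 0.00769). The next members, Ifit3 (0.89, adjusted p 0.107), Irf7 (0.77, adjusted p 0.153) and Irf9 (0.58, adjusted p 0.178), had groups apart without passing. Phf11a and Tor3a, which are not in the list, rose by 1.04 and 0.93.

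The Ifit1 promoter is shown for the interferon-stimulated response element, searched as TTTCNNTTTC on both strands. Its 120 bases before the start (RefSeq, GRCm38.p6, + strand) hold 2 matches, in capitals.
Ifit1, chr19:34640769-34640888: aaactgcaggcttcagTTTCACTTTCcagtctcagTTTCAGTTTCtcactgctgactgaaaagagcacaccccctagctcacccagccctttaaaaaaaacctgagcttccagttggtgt

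The element was found in the windows of 3 of 15 genes that rose (Ifit1, Miox and Phf11a), 5 of 128 that fell (3.91%), 576 of 14749 tested (3.91%) and 14 of 26 members of the interferon list (53.8%). The Ifit1 call was lost without TRAF2/Casp8 knockout replicate 1 or 4 or triple knockout replicate 3 or 4, which left 1 list member higher, and without triple knockout replicate 1 there were 3. Phf11a was lost without replicate 3 or 4 of either genotype, and Tor3a held only without triple knockout replicate 4 or TRAF2/Casp8 knockout replicate 2.

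Few genes of the metabolic and stress groups passed the threshold. Of 28 bile acid genes, 1 fell (3.57% against 0.903% of all genes). Baat, the enzyme that attaches taurine or glycine to bile acids, fell 2.69-fold (-1.43 ± 0.17, adjusted p 0.000913), from 8.41 to 8.69 in TRAF2/Casp8 knockout livers to 6.80 to 7.57. None of the 28 rose, 7 were at an unadjusted p under 0.05, and the median was 0. The rate-limiting enzyme of bile acid synthesis, Cyp7a1, differed by -0.62 (adjusted p 0.796). Of 26 sterol and fatty acid synthesis genes, Srebf1 rose (3.85% against 0.117% of all genes) and none fell, with 6 at an unadjusted p under 0.05 and a median of 0.17. Fasn, the fatty acid synthase, differed by 0.57 (adjusted p 0.427).

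None passed in limma among 29 drug-metabolising enzymes (median 0.10, 6 at an unadjusted p under 0.05), 23 urea cycle and amino acid genes (0.06, 5), 22 fatty acid oxidation and PPARα genes (-0.02, 2) and 21 NRF2 and antioxidant genes (0.03, 4). Over all 18820 genes, 2019 were at an unadjusted p under 0.05. Cyp2c29 was the nearest of the enzymes, at 6.75 to 8.82 in triple knockout and 4.87 to 6.64 in TRAF2/Casp8 knockout livers (1.61 ± 0.42, adjusted p 0.133). Hal, which breaks down histidine, had groups apart at 1.35 ± 0.32 (adjusted p 0.0853).

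Of 27 acute phase and complement genes, none passed (median 0.13, 3 at an unadjusted p under 0.05). Orm1, an acute phase glycoprotein, varied widely, at 6.27 to 10.13 in triple knockout and 5.37 to 6.80 in TRAF2/Casp8 knockout livers (2.00 ± 1.11, adjusted p 0.648). Il1rn, the interleukin-1 receptor antagonist, just missed the threshold at -1.38 ± 0.30 (adjusted p 0.0519) and passed under some alternatives, among them without TRAF2/Casp8 knockout replicate 2.

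No gene passed among 19 AP-1 and immediate early genes (median -0.01, 2 at an unadjusted p under 0.05), 19 p53 target genes (-0.06, 4), 19 unfolded protein and integrated stress response genes (0.17, 5) and 27 cell cycle genes (0.20, 3). The unadjusted counts stand beside 2019 of all 18820 genes. Gadd45a, a growth arrest gene, and Phgdh, the first enzyme of serine synthesis, came nearest, at 0.92 ± 0.21 (adjusted p 0.0633) and 0.93 ± 0.21 (adjusted p 0.0608). All 27 cell cycle genes differed by more than 0, yet their mean signal overlapped widely, from 7.37 to 8.33 in triple knockout and from 7.67 to 8.06 in TRAF2/Casp8 knockout livers.

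Markers of the other cell types in a neonatal liver mostly overlapped between the genotypes. Of 20 hepatocyte markers only Apoc3 passed, higher (5% against 0.117% of all genes, median -0.01). No marker passed in limma for Kupffer cells (15 genes, median -0.02, 0 at an unadjusted p under 0.05), T and NK cells (20, 0.00, 1), endothelial cells (16, 0.04, 0), neutrophils and their precursors (18, 0.11, 1), erythroid cells (17, 0.48, 0) or megakaryocytes and platelets (7, 0.65, 2). The erythroid median ranged from 0.19 without triple knockout replicate 4 to 0.82 without triple knockout replicate 2, and its mean signal from 5.95 to 7.48 in triple knockout and 5.80 to 7.13 in TRAF2/Casp8 knockout livers. Megakaryocyte markers averaged 6.65 to 7.44 and 6.01 to 6.68, touching at the edge. Kupffer cell markers averaged 9.04 to 9.20 and 9.06 to 9.23.

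**Figure D5:**
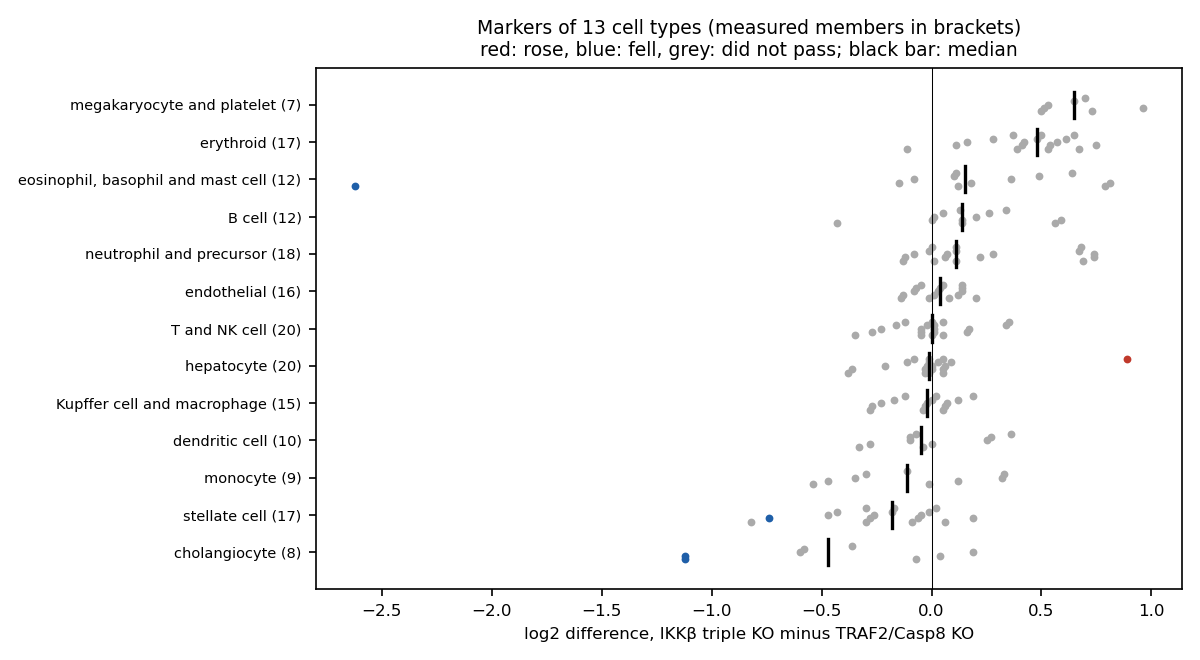
Each dot is a measured marker gene of 1 of 13 cell types, placed by its log2 difference between triple knockout and TRAF2/Casp8 knockout; red rose, blue fell, grey did not pass, and the black bar is the median. Cholangiocyte markers have the lowest median at -0.47 and megakaryocyte markers the highest at 0.65, and Siglecf stands alone at -2.62.

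Against WT, the triple knockout differed in few probe sets. This comparison shares the triple knockout arrays with the one above, so low values in those arrays enter both, and the values are given side by side only. Triple knockout and WT arrays also share plate column 5, apart from the TRAF2/Casp8 knockout arrays in column 7. Nearness to WT by genotype and by column therefore cannot be told apart. Of 35556 probe sets 7 (0.0197%) differed from WT, 5 (0.0141%) higher and 2 (0.00562%) lower. Ubd (4.45), Cxcl10 (2.66), Wif1 (2.00), Traf2 (0.61) and Ctbp2 (0.61) were higher, and Casp8 (-0.99) and Gm10319 (-2.0) lower. The count was 4 without triple knockout replicate 2 or WT replicate 3, 11 without WT replicate 1 and 13 without WT replicate 4. The 170 genes that fell had a median of 0.10 above WT, and the 22 that rose a median of -0.03.

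A wide uncertainty remained for several of these genes. Rragd was 1.01 above WT (adjusted p 0.0712), Nfkb2 1.01 (adjusted p 0.0956), Tff3 1.36 (adjusted p 0.127) and Cd74 0.92 (adjusted p 0.0864), none of which passed, and a p above the threshold does not show that levels were equal. Guca2b was 0.29 above WT (adjusted p 0.937).

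The RIPK3 triple knockout, measured against the same TRAF2/Casp8 knockout arrays, had 94 probe sets (0.264%) past the threshold, 47 (0.132%) in each direction. Both of these groups stand in plate column 7 and the livers lacking IKKβ in column 5. Column and genotype cannot be told apart where RIPK3 knockout livers are set beside those lacking IKKβ. Guca2b was 7.75 to 8.73, Rragd 8.45 to 9.03, Siglecf 8.12 to 8.92 and Nfkbie 7.61 to 8.16 in those livers, each apart from the triple knockout without IKKβ. Ltb was intermediate there, at 6.81 to 7.49, and Ccl20 at 5.20 to 5.40. Other falls were also past the threshold in the RIPK3 triple knockout, among them Ccl2 at 4.81 to 5.04 (-1.10 against TRAF2/Casp8 knockout, adjusted p 0.0154) and Cldn7 at 4.95 to 5.45 (-1.0, adjusted p 0.0117), both overlapping with the livers lacking IKKβ. Akr1c18 (9.72 to 10.65) and Mettl7b (9.65 to 9.99) likewise overlapped in RIPK3 triple knockout livers with those lacking IKKβ, and both were higher than in TRAF2/Casp8 knockout livers by 3.01 and 1.32 (adjusted p 0.0338 and 1.69e-05). The same held for Dubr, at 4.45 to 4.68 (1.19, adjusted p 0.00304), and Apoc3, at 10.33 to 10.91 (0.94, adjusted p 0.0198).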

How the data were processed

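RNA from whole livers of 16 mice (4 genotypes, 4 mice each) was hybridised to 1-colour arrays. The authors deposited log2 signals after RMA normalisation, per the submitters' processing notes; no source used here gives the build. Values were used as deposited. One limma (3.58.1, R 4.3.3) model with 4 genotypes was fitted to 35556 probe sets, with Benjamini-Hochberg adjustment over all of them; the 8 arrays of the other genotypes entered through the shared spread only. A gene is the probe set with the highest mean among those with 1 symbol: 21218 probe sets have 1 symbol, 1881 several and 12457 none, and of the 223 called these are 197, 4 and 22. Named genes are the targeted genes, the 15 largest rises and falls with groups apart (predicted and small RNA genes left out), up to 6 passing members per list or 3 with the smallest p; others were chosen after their values were seen. The members and the 34 lists were chosen with earlier results of these data known. On simulated data for this comparison (35556 probe sets), 50%, 74% and 98% of log2 changes of 0.5, 1 and 2 were recovered, with 4.52% false calls. The number of arrays limits the precision. Alternatives were the variance model, arrays fitted, dim probe sets, normalisation, centring, weights, a replicate block and single arrays left out. Figures used Python 3.11.15 and matplotlib 3.10.9.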

Additional observations from a re-analysis of the deposited data

Results flagged for a closer look

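In 10 of 206 pairs of a named gene and a genotype, 1 of the 4 arrays stood far from the others, where chance gives about 1 in 20. In TRAF2/Casp8 knockout livers, Gabbr2 was 6.20 in replicate 4 against 7.24 to 7.45 in the others, and Wif1 was 9.67 in the same array against 10.35 to 10.37. Replicate 1 had Tff3 at 8.86 against 9.40 to 9.50 and Cdc6 at 5.17 against 5.65 to 5.68. Replicate 3 had Nfkb2 at 7.91 against 8.29 to 8.34, Cd14 at 5.57 against 6.34 to 6.47 and Saa4 at 10.35 against 9.92 to 9.98. In triple knockout livers, Serpina12 was 5.04 in replicate 4 against 4.12 to 4.24, Vsig4 was 9.42 in the same array against 9.53, and Psat1 was 8.55 in replicate 2 against 7.68 to 7.81.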

How the results depend on the processing

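The 223 probe sets (26 higher, 197 lower) became 109 (16 and 93) when only the 8 arrays were fitted, 509 (100 and 409) with array weights, 340 (59 higher) with 1 probe set per gene, and 76 (10 and 66) with a change of at least 2-fold. Without the dimmest probe sets 45 were higher. Another variance model, a further quantile normalisation and median centring gave 238, 250 and 203. The split was 38 higher and 212 lower after the quantile step and 33 and 170 after centring, and the median of all genes moved to 0.00463 and 0.0258. With 1 array left out, the total ranged from 115 to 312, the higher ones from 10 to 45 and the lower ones from 104 to 275. Same-numbered arrays of the 2 genotypes deviated together with correlations of 0.113, -0.0224, 0.111 and 0.108, so the numbers were not taken to pair the mice; the replicate block left 5 probe sets (1 higher, 4 lower), 4 of them among the 223. Against WT, the 7 probe sets became 1 with 2 groups fitted, 13 without the dimmest, 28 with 1 probe set per gene, 20 with array weights, 4 at 2-fold or more, and 4 to 13 with 1 array left out; these alternatives were chosen after seeing the data. Casp8 ranged from -0.15 to 0.01 with 1 array left out, turning above 0 without triple knockout replicate 1, with an adjusted p of 0.995. No gene among the 192 changed direction under any of these alternatives. With 4 arrays a group, log2 changes of 0.5 were often missed in the simulation, so small differences are not shown to be absent.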

Other observations

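The following called genes are outside the lists and were chosen after their values were seen, so they stand as single genes. The tight-junction gene Ocln fell by 0.99 (adjusted p 0.0416), F11r by 0.60 (adjusted p 0.00806), Lsr by 0.66 (adjusted p 0.00229) and Marveld2 by 0.57 (adjusted p 0.0399). Vil1, which encodes the microvillus protein villin, was at 3.41 to 3.84 in triple knockout and 4.26 to 4.81 in TRAF2/Casp8 knockout livers (-0.83, adjusted p 0.0124). Ocln was lost without any 1 of 6 of the 8 arrays, Marveld2 without 7 and Vil1 without 2, while F11r and Lsr kept their calls with each array left out, and in a fit of the 8 arrays alone Ocln, Marveld2, Vil1 and F11r did not pass. The cholangiocyte markers had a median of -0.47, with 5 of 8 lower and groups apart, against 4.69% of all genes. The part of these markers in the falls above was not tested. Guca2a, which encodes guanylin, the relative of uroguanylin, fell 2.85-fold (-1.51, adjusted p 0.0036), from 5.33 to 6.71 in TRAF2/Casp8 knockout livers to 4.20 to 4.73, a call lost in the fit of 8 arrays. The integrin genes Itgb8 and Itga2 fell 2.91-fold and 2.57-fold (adjusted p 0.00122 and 0.00113), both with groups apart and with their calls kept when each array was left out.

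Ikbkb lies on mouse chromosome 8. Of 137 tested genes within 10 Mb of it, 1 besides Ikbkb was called (Arhgef10), where 1.02% of all genes were called. Of the called genes 5.21% lie on that chromosome, against 4.75% of all genes.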
